A study of Mus musculus with 24 samples.

Results

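The 10 genes of constrictor signalling described here were examined in mouse aorta after a passed episode of angiotensin II (Ang II) infusion. They encode the serotonin receptors Htr1b, Htr2a and Htr2b, the endothelin receptors Ednra and Ednrb, the endothelin precursor Edn1 and its converting enzyme Ece1, the vasopressin receptor Avpr1a, the thromboxane receptor Tbxa2r and the prostacyclin receptor Ptgir. They were chosen by gene symbol, 10 of the 37606 genes in the deposited count table, and all 10 were found. The study sequenced messenger RNA from aortic homogenates of wild-type mice, 24 libraries in 6 groups of 4. Ang II is a peptide that makes arteries contract and drives up pressure. Mice received it, or vehicle as the sham treatment, from a minipump under the skin over 2 weeks. Aortas were taken 2, 4 or 6 months afterwards, giving an Ang II and a sham group at each time. All groups are labelled wild type; strain, sex and age are not given in the labels.

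Arterial tone is set by smooth muscle cells that read signals from endothelium, nerves, platelets and blood. Endothelin-1 is made mainly by endothelial cells as a long precursor that endothelin-converting enzyme cuts to the active peptide. It contracts smooth muscle through the A receptor, while the B receptor of endothelial cells relaxes vessels and clears the peptide. Serotonin and thromboxane A2, both released by platelets, and vasopressin, released by the pituitary, constrict through their receptors on smooth muscle. Prostacyclin, made in the vessel wall, opposes thromboxane by raising cyclic AMP.

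Libraries held between 19163673 and 58676098 counts. The 8 libraries at 6 months stood apart, with 31.7% to 59.3% of counts from mitochondrial genes against 7.72% to 16.3% earlier, so 6-month levels were compared only within that time. As a check of the label, all 10 smooth muscle and all 10 endothelial markers examined were counted in every library. Transcripts of neighbouring tissue were present too, with summed airway epithelium markers between 37.8 and 8670 CPM (library-scaled counts, by trimmed mean of M values, TMM) and summed adipocyte markers between 3168 and 13470 CPM. In such bulk samples, fewer cells of a type and less RNA per cell cannot be told apart. Whether the replicates come from separate animals is not stated, and the p-values speak for the spread among these libraries alone, which may be technical.

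The 10 transcripts spanned a wide range of abundance. Per kilobase of exon, Ece1 was the most abundant, with a median of 20.2 CPM per kb over the 16 libraries at 2 and 4 months, followed by Ednrb at 7.09 and Ednra at 2.39. Tbxa2r at 2.31, Edn1 at 2.20, Ptgir at 1.44 and Avpr1a at 0.930 CPM per kb formed a middle group. The serotonin receptors were lowest, with medians of 0.212 for Htr2b, 0.190 for Htr1b and 0.0766 CPM per kb for Htr2a. Ece1 stood apart from every other gene in these libraries, while the ranges of Ednra, Tbxa2r and Edn1 overlapped. As a ratio of highest to lowest library Htr1b had the widest spread, between 0.0410 and 1.44 CPM per kb.

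**Figure D1:**
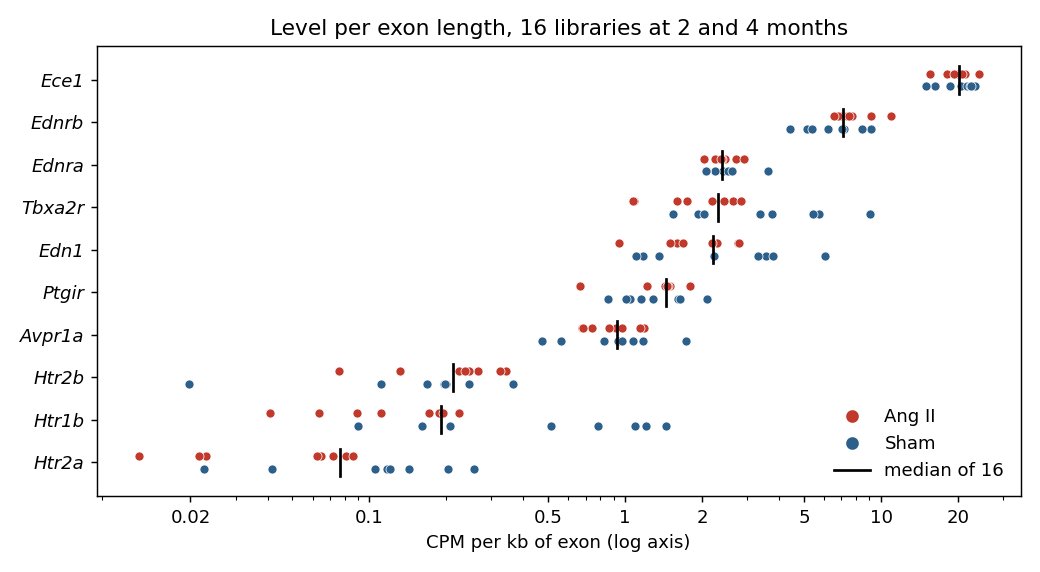
Level of each transcript in CPM per kb of exon (log axis) in each of the 16 libraries at 2 and 4 months, Ang II in red above sham in blue, with the median of the 16 as a black bar. Ece1 lay highest at a median of 20.2 and Htr2a lowest at 0.0766, and 5 sham libraries of Htr1b lay apart to the right of its other libraries.

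At 2 months Htr1b was the member with the largest difference. It was lower in Ang II aortas, at 0.127 times the sham level, and Tbxa2r and Htr2a were also below every sham library without passing the test. No member passed within 4 or 6 months. Htr1b encodes the 5-HT1B receptor, which couples to inhibitory G proteins and constricts cranial and other arteries. The gene lies on the minus strand of chromosome 9 (ENSMUSG00000049511.5, 81628291 to 81633828, build mm10). Its counts were 35, 21, 7 and 25 in the Ang II libraries, against 160, 149, 106 and 166 in the sham libraries. These were 1.06, 0.424, 0.301 and 0.880 CPM in Ang II aortas and 5.71, 5.17, 3.70 and 6.80 CPM in sham aortas. The groups were well apart, since the highest Ang II library reached 1.06 CPM and the lowest sham library 3.70 CPM. The means were 0.666 ± 0.362 CPM with Ang II and 5.35 ± 1.29 CPM in sham (SD, n = 4 each). The log2 fold change was -2.97 (SE 0.417, edgeR adjusted p = 0.0118). Over all 16421 genes tested, 1.81% passed at this time, and Htr1b was 1 of 10 members that did. Leaving out sham replicate 1 ended the call (edgeR adjusted p = 0.0547). Summed smooth muscle markers moved with it, as set out below.

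The promoters of Htr1b and Tbxa2r are shown because their libraries did not overlap between the groups at 2 months and they had the smallest p-values of the members there, although Tbxa2r did not pass edgeR. Each window runs from 250 bases before to 50 bases after a RefSeq transcript start (build GRCm38.p6), and capitals mark matches to the motifs searched on both strands. The CArG box, which binds serum response factor in smooth muscle genes, was searched by its consensus. An AP-1 site was searched as TGAGTCA and a GATA site as AGATAA. A GC box was searched as GGGCGG, and the TATA box as TATAAA.
Htr1b, chr9:81633783-81634082, minus strand: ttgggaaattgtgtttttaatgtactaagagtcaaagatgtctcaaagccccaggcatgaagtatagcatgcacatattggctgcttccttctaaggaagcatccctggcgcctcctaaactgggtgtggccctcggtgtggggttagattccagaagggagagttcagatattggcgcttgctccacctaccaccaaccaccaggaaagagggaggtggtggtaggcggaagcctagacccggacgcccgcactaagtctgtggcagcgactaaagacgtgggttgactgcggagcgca
Tbxa2r, chr10:81328453-81328752, plus strand: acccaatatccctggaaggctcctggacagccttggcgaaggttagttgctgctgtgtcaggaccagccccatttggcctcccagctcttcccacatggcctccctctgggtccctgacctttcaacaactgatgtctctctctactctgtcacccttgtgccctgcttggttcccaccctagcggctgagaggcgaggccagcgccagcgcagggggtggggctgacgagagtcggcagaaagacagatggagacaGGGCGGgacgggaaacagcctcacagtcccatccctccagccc
The Htr1b window held none of the 5 motifs, and the Tbxa2r window shown held a GC box at bases 8 to 13 after the start. Another Tbxa2r window, chr10:81328018-81328317, held none of the 5 motifs. A GC box occurred in 35.7% of 32851 promoters of this length, an AP-1 site in 5.2%, a GATA site in 11.2%, a TATA box in 13.6% and a CArG box in 1.63%. All 10 members matched the promoter table, with 14 windows in all, and no window held a CArG box or an AP-1 site in the letters searched. A match is a description of letters and not evidence of binding.

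**Figure D2:**
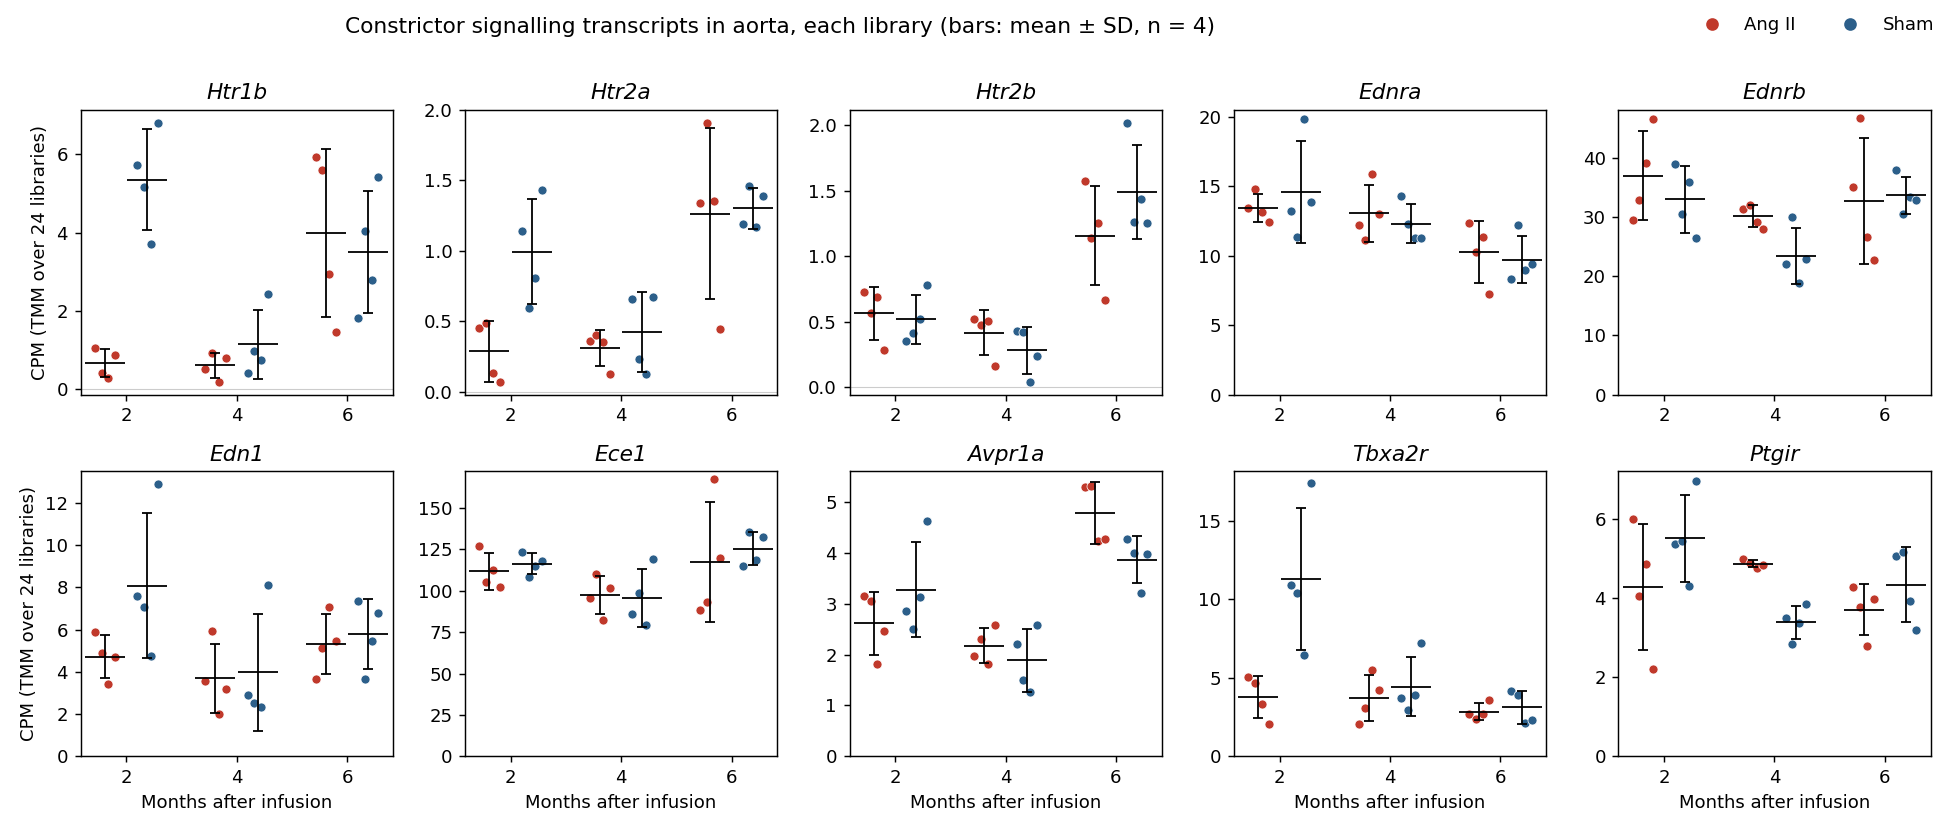
CPM of each of the 10 transcripts in all 24 libraries by months after infusion, Ang II in red left of sham in blue, with the mean and SD of 4 libraries as bars. Htr1b, Htr2a and Tbxa2r lay lower in all Ang II than in all sham libraries at 2 months, and Ptgir higher in all Ang II than in all sham libraries at 4 months.

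Htr2a encodes the 5-HT2A receptor, which couples to Gq and raises calcium in smooth muscle. At 2 months it had 15, 24, 3 and 2 counts in Ang II libraries, against 32, 17, 23 and 35 counts in sham libraries. In CPM these were 0.454, 0.485, 0.129 and 0.0704 with Ang II and 1.14, 0.590, 0.803 and 1.43 in sham, so the groups did not overlap, with 0.485 CPM the highest Ang II and 0.590 CPM the lowest sham value. The log2 fold change was -1.69 (SE 0.582, edgeR adjusted p = 0.294). Replicates 3 and 4 were the low ones among the Ang II libraries. At 4 months Htr2a was under the count filter and was not tested, with 9, 11, 9 and 3 counts with Ang II and 17, 5, 3 and 20 counts in sham.

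Htr2b encodes the 5-HT2B receptor, found on endothelium and heart valves. At 2 months its counts were 24, 28, 16 and 8 in Ang II libraries and 10, 12, 15 and 19 in sham libraries, with full overlap. Its log2 fold change was 0.15 at 2 months, 0.59 at 4 months and -0.33 at 6 months (SE 0.392, 0.596 and 0.290), with edgeR adjusted p of 0.957, 0.643 and 0.9997. No library at 2 or 4 months held more than 28 counts. Of the Htr2b exons, 11.8% overlap Psmd1, a proteasome gene at 84.4 to 117 CPM at 2 and 4 months, and whether counting used strand is not stated in the sources. The same limit holds for Htr1b, of whose exons 18% overlap the antisense gene D430036J16Rik. That gene had 9, 4, 0 and 0 counts in Ang II and 2, 0, 43 and 4 counts in sham libraries at 2 months, so sham replicate 3 alone held many.

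At 4 and 6 months the serotonin receptors did not differ between the groups beyond their spread. Htr1b had 0.523, 0.919, 0.194 and 0.808 CPM in Ang II aortas at 4 months, against 0.426, 0.979, 0.757 and 2.42 CPM in sham aortas. Sham replicate 4 was the high one, and the other libraries of both groups lay under 1 CPM (a log2 difference of -0.88, SE 0.619, edgeR adjusted p = 0.518). At 6 months Htr1b had 5.92, 5.60, 2.95 and 1.47 CPM with Ang II and 1.82, 4.03, 2.78 and 5.41 CPM in sham. Both groups spanned the same range (a log2 difference of 0.18, SE 0.464, edgeR adjusted p = 0.9997). Htr2a had 0.442 to 1.91 CPM with Ang II and 1.17 to 1.46 CPM in sham at 6 months (log2 fold change -0.02, SE 0.358).

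No endothelin member passed edgeR at 2, 4 or 6 months. Edn1, the precursor of endothelin-1 (ENSMUSG00000021367.8, chromosome 13, 42301476 to 42307990), had 5.90, 4.89, 3.40 and 4.68 CPM in Ang II aortas at 2 months, against 7.60, 7.08, 4.75 and 12.9 CPM in sham aortas. Sham replicate 3 lay within the Ang II range, and sham replicate 4 was the highest of all. The log2 fold change was -0.75 (SE 0.310, unadjusted p = 0.0395, edgeR adjusted p = 0.420). At 4 months the levels were 3.58, 5.95, 2.01 and 3.19 CPM with Ang II and 2.91, 2.52, 2.35 and 8.11 CPM in sham (log2 fold change -0.08, SE 0.482, edgeR adjusted p = 0.942). Sham replicate 4 alone stood above 3 CPM in its group. At 6 months the ranges were 3.65 to 7.06 CPM with Ang II and 3.64 to 7.37 CPM in sham.

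The Edn1 promoter is shown because GATA factors are known to act on it in endothelial cells. Capitals mark the matches found.
Edn1, chr13:42301226-42301525, plus strand: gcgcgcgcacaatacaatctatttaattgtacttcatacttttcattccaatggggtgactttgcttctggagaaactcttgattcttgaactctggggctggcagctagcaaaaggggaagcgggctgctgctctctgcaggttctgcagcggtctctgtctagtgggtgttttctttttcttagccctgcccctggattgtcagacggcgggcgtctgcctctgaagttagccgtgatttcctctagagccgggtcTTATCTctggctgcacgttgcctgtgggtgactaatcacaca
The only match lay at bases 9 to 14 after the RefSeq start used, on the minus strand of the gene, and no TATA box match was found in these letters. Other starts and letters outside this window were not searched.

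Ece1, the converting enzyme, was the most deeply counted member. At 2 months it had 127, 105, 113 and 102 CPM with Ang II, against 124, 109, 115 and 118 CPM in sham (edgeR log2 fold change -0.03, SE 0.0963, adjusted p = 0.958). The estimate at 4 months was 0.05 (SE 0.146). At 6 months Ang II replicate 3 reached 168 CPM, and the other 3 Ang II libraries lay at 88.3, 93.4 and 120 CPM against 115 to 135 CPM in sham (log2 fold change -0.09, SE 0.205).

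Ednra, the A receptor that carries the contraction of smooth muscle, had 13.4, 14.8, 13.1 and 12.4 CPM with Ang II at 2 months and 13.2, 11.4, 19.9 and 13.8 CPM in sham. The groups overlapped, with log2 fold changes of -0.09, 0.11 and 0.09 at 2, 4 and 6 months (SE 0.176, 0.131 and 0.196). Summed smooth muscle markers, given below, did not overlap between the same libraries at 2 months.

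Ednrb, the B receptor, had 31.3, 31.97, 29.0 and 28.0 CPM with Ang II at 4 months, against 21.97, 29.99, 18.8 and 22.9 CPM in sham. Of the sham libraries 3 lay below every Ang II library, and sham replicate 2 lay among them. The log2 fold change was 0.39 (SE 0.143, unadjusted p = 0.0250, edgeR adjusted p = 0.244). It was 0.18 at 2 months and -0.04 at 6 months (SE 0.161 and 0.200). Set against Ednra per length, Ednrb was 2.81 to 4.81 times as abundant with Ang II at 2 months and 2.315 to 3.78 times in sham. At 4 months these ratios were 2.35 to 3.70 with Ang II and 1.97 to 3.14 in sham, and at 6 months 3.005 to 5.84 with Ang II and 3.21 to 5.84 in sham. Ednrb exceeded Ednra in all 24 libraries.

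Avpr1a encodes the V1a receptor, through which vasopressin contracts arteries. It had 3.15, 3.05, 1.81 and 2.46 CPM with Ang II at 2 months, against 2.86, 2.50, 3.14 and 4.63 CPM in sham, with overlap (edgeR log2 fold change -0.30, SE 0.277, adjusted p = 0.827). The estimate was 0.23 at 4 months (SE 0.276). At 6 months it was 0.32 (SE 0.177), with 5.31, 5.33, 4.23 and 4.27 CPM with Ang II and 4.28, 4.01, 3.20 and 3.98 CPM in sham, the edgeR adjusted p being 0.9997. Of 19343 genes tested at 6 months, 0% passed edgeR. Unadjusted p lay under 0.05 for 976 of them, and DESeq2 called 63, none of them a member.

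Tbxa2r encodes the thromboxane receptor, which couples to Gq and G12/13 (ENSMUSG00000034881.8, chromosome 10, 81328731 to 81335172). At 2 months it had 5.06, 4.65, 3.36 and 2.08 CPM with Ang II, against 10.9, 10.4, 6.42 and 17.4 CPM in sham. Every Ang II library lay below every sham library, and such separation held for 3 of 10 members (Htr1b, Htr2a and Tbxa2r) and for 7.93% of all genes tested. The log2 fold change was -1.54 (SE 0.365, unadjusted p = 0.00239), and the edgeR adjusted p was 0.0915. Tools differed on this gene: DESeq2 gave an adjusted p of 0.00111, and the authors' deposited table lists it at -1.56 with an adjusted p of 0.00115. At 4 months it had 2.05, 3.05, 5.46 and 4.20 CPM with Ang II and 3.68, 2.94, 3.91 and 7.20 CPM in sham (log2 fold change -0.25, SE 0.361). At 6 months the ranges were 2.37 to 3.61 CPM with Ang II and 2.10 to 4.16 CPM in sham (log2 fold change -0.13, SE 0.289).

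Ptgir encodes the receptor of the dilator prostacyclin (ENSMUSG00000043017.9, chromosome 7, 16906490 to 16910905). At 4 months it had 4.99, 4.89, 4.76 and 4.85 CPM with Ang II, against 3.49, 2.84, 3.36 and 3.84 CPM in sham. Every Ang II library thus lay above every sham library. Such separation held for 1 of 9 tested members, close to its share of 10.7% among all genes tested at this time. The log2 fold change was 0.55 (SE 0.146, unadjusted p = 0.00491, edgeR adjusted p = 0.126). DESeq2 gave an adjusted p of 0.0254 and limma voom one of 0.0474. The value in the authors' deposited table was 0.0273. By edgeR 0 of 9 tested members passed at 4 months, against 0.707% of 16127 genes, and 2 had an unadjusted p under 0.05 (Ednrb and Ptgir), as had 15.5% of all genes. At 2 months Ptgir lay at 6.00, 4.04, 4.86 and 2.22 CPM with Ang II and 5.36, 5.45, 4.29 and 6.96 CPM in sham (log2 fold change -0.34, SE 0.305), and at 6 months it changed by -0.22 on the log2 scale (SE 0.235). Neither passed.

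Per length, Ptgir stood at 0.5005 to 0.834 of the level of Tbxa2r with Ang II at 2 months and at 0.231 to 0.385 in sham, without overlap. Between these libraries Tbxa2r by itself did not overlap either, while Ptgir by itself did. At 4 months the ratio was 0.502 to 1.40 with Ang II and 0.307 to 0.557 in sham, with overlap, and at 6 months 0.596 to 0.920 with Ang II and 0.702 to 1.08 in sham. No test was run on this ratio of the dilator to the constrictor receptor transcript.

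**Figure D3:**
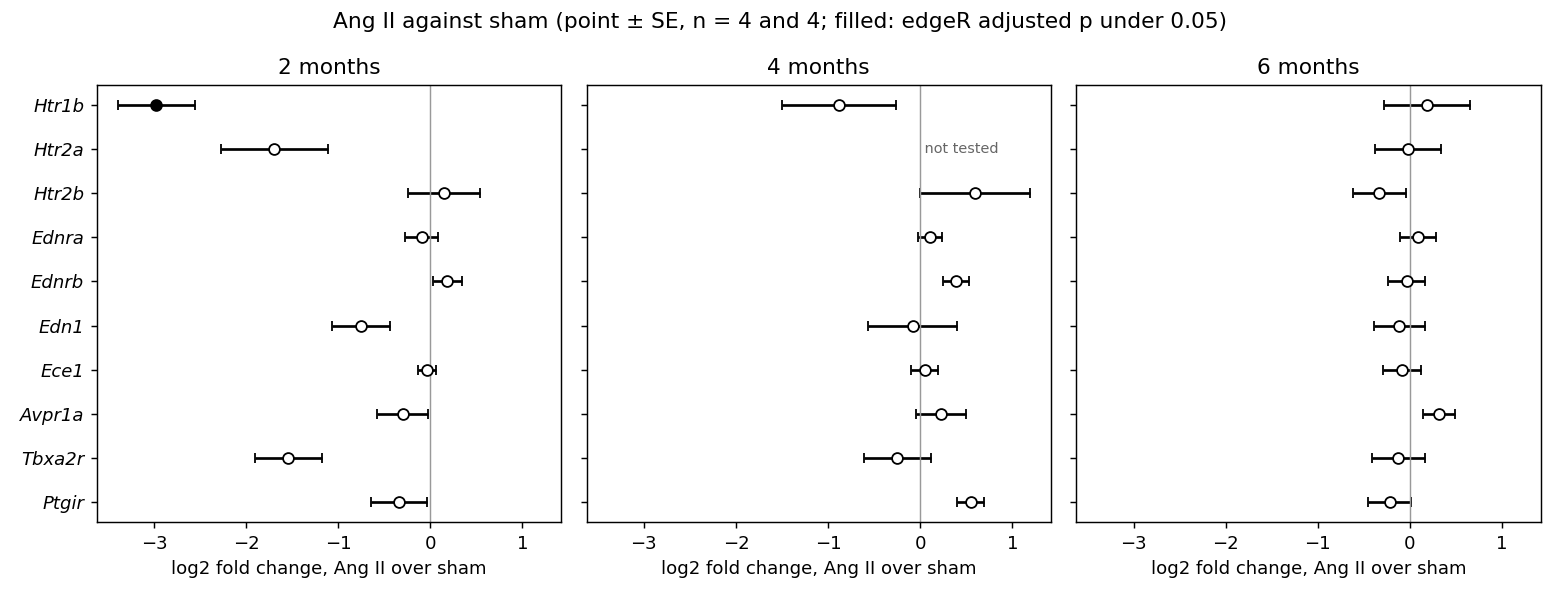
Log2 fold change of Ang II over sham for the 10 members at 2, 4 and 6 months, with SE as bars (4 libraries per group). A filled point has an edgeR adjusted p under 0.05: only Htr1b at 2 months, at -2.97. Htr2a was not tested at 4 months.

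Over the members together, the median log2 fold change was -0.32 at 2 months, 0.11 at 4 months and -0.06 at 6 months, beside 0.01, 0.04 and -0.03 for all genes tested. At 2 months 8 of 10 members had estimates below 0 and 4 had an unadjusted p under 0.05 (Htr1b, Htr2a, Edn1 and Tbxa2r), as had 10.8% of all genes. At 6 months 0 of 10 did, and groups did not overlap for 0 members and for 2.99% of all genes. With the 3 times averaged and time as a term, Htr1b had a log2 fold change of -1.19 (SE 0.439, edgeR adjusted p = 0.504) and Tbxa2r of -0.66 (SE 0.248, edgeR adjusted p = 0.515). None of the 10 members passed, against 0.0052% of 19218 genes.

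Whether the Ang II difference changed with time was tested by the interaction of treatment and time. For Htr1b the difference at 6 months exceeded that at 2 months by 3.14 on the log2 scale (SE 0.665, edgeR adjusted p = 0.0347), and it was 1 of 10 members that passed, against 0.985% of 20100 genes. The call was lost with replicate numbers as a block (edgeR adjusted p = 0.117), and on leaving out any of 12 of the 16 libraries, Ang II replicate 2 at 2 months giving the highest edgeR adjusted p, 0.0882. The 4 libraries without which it held were sham replicate 3 and Ang II replicate 1 at 2 months and replicate 4 of both groups at 6 months. For 4 against 2 months Htr1b differed by 2.09 (SE 0.771, edgeR adjusted p = 0.373), Tbxa2r by 1.29 (SE 0.532, edgeR adjusted p = 0.422) and Ptgir by 0.89 (SE 0.336, edgeR adjusted p = 0.385). In that test 0 of 10 members and 0% of 17153 genes passed edgeR, with 1813 genes at an unadjusted p under 0.05. By limma voom Htr1b passed (3.25, adjusted p = 0.0335). Tbxa2r differed by 1.42 between 6 and 2 months (SE 0.489, edgeR adjusted p = 0.274).

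The group levels of Htr1b behind its 6 against 2 month interaction follow as values only. They were not tested between these times, since mitochondrial share and time cannot be told apart. Ang II aortas held 3.99 ± 2.14 CPM at 6 months and 0.666 ± 0.362 CPM at 2 months, and sham aortas 3.51 ± 1.55 CPM at 6 months and 5.35 ± 1.29 CPM at 2 months (SD, n = 4 each). For 4 against 2 months, where no member passed the interaction test, the values of each group follow. Sham aortas held 1.15 ± 0.881 CPM of Htr1b at 4 months and 5.35 ± 1.29 CPM at 2 months (SD, n = 4 each), a log2 fold change of -2.22 (SE 0.494, edgeR adjusted p = 0.101). Ang II aortas held 0.611 ± 0.324 CPM at 4 months and 0.666 ± 0.362 CPM at 2 months, a log2 fold change of -0.09 (SE 0.549). Likewise Tbxa2r in sham aortas was 4.43 ± 1.89 CPM at 4 months and 11.3 ± 4.53 CPM at 2 months (log2 fold change -1.36, SE 0.359, edgeR adjusted p = 0.132), while in Ang II aortas it was 3.69 ± 1.47 CPM at 4 months and 3.79 ± 1.35 CPM at 2 months (log2 fold change -0.02, SE 0.367). Ptgir in sham aortas differed by -0.73 between 4 and 2 months (SE 0.190, edgeR adjusted p = 0.130), Edn1 by -1.04 (SE 0.465), Avpr1a by -0.81 (SE 0.301) and Ednrb by -0.52 (SE 0.170). Summed adipocyte markers did not overlap between these sham groups, at 10900 to 12940 CPM at 4 months and 8468 to 10050 CPM at 2 months. With these markers as a covariate the log2 fold change was 0.0335 for Edn1, -0.29 for Avpr1a, -1.12 for Htr1b and -0.849 for Tbxa2r. Of all genes 352 then had an unadjusted edgeR p under 0.05, against 2549 without the covariate. Since the marker sums separate the sham groups, this fit cannot tell them apart from time, and their part was not tested. None of 10 members passed edgeR in sham, against 0.00619% of 16144 genes, and 7 had an unadjusted p under 0.05, as had 15.8% of all genes. None of 9 tested members passed in Ang II aortas, against 0.00611% of 16367 genes. All 4-month sham libraries lay below all 2-month sham libraries for 2 members (Htr1b and Ptgir) and the groups did not overlap for 9.5% of all genes. In Ang II aortas this held for 0 members and 6.23% of genes. Without sham replicate 4 at 4 months, 3 members passed in sham: Htr1b at -2.91, Edn1 at -1.66 and Tbxa2r at -1.71 (edgeR adjusted p = 0.00693, 0.0407 and 0.0327). In that fit 641 of 16423 genes passed, against 1 gene with that library kept.

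In the order of group means over the 2 earlier times, Htr1b ran from sham at 2 months through sham at 4 months and Ang II at 2 months to Ang II at 4 months. Sham at 2 months lay apart from sham at 4 months, and the last 3 groups overlapped with their neighbours. Tbxa2r had the same order, and its sham libraries at 4 months reached 7.20 CPM, above the lowest sham library at 2 months, 6.42 CPM.

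Smooth muscle markers moved with Htr1b and Tbxa2r. The sum of 10 markers (Acta2, Myh11, Tagln, Cnn1, Smtn, Lmod1, Myocd, Mylk, Myl9 and Des) was 1775, 1075, 1253 and 923 CPM in Ang II aortas at 2 months, against 5274, 4039, 3476 and 6405 CPM in sham aortas. At 4 months it was 856, 821, 601 and 984 CPM with Ang II and 901, 1336, 759 and 2580 CPM in sham. The sham library with the highest sum at 4 months, replicate 4, was also the one with the highest Htr1b, Tbxa2r and Edn1. Per 1000 CPM of this sum, Htr1b was 0.597, 0.395, 0.241 and 0.953 CPM with Ang II at 2 months and 1.08, 1.28, 1.06 and 1.06 CPM in sham, so the groups still did not overlap. For Tbxa2r the same ratio was 2.85, 4.33, 2.68 and 2.25 CPM with Ang II and 2.07, 2.57, 1.85 and 2.71 CPM in sham, with overlap. For Htr2a it was 0.256, 0.451, 0.103 and 0.0763 CPM with Ang II and 0.217, 0.146, 0.231 and 0.224 CPM in sham, also with overlap. Each remaining member was higher by this ratio in all Ang II libraries. The marker sum was itself lower in all of these libraries. The ratio therefore rises for any transcript with similar CPM in both groups, and this separation is no result about these members. Ednra, for example, was 7.57 to 13.8 CPM with Ang II and 2.16 to 5.72 CPM in sham. The share of all genes apart by this ratio was not computed. The part of the marker sum in these differences was not tested, and this ratio was added after the data were seen.

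**Figure D4:**
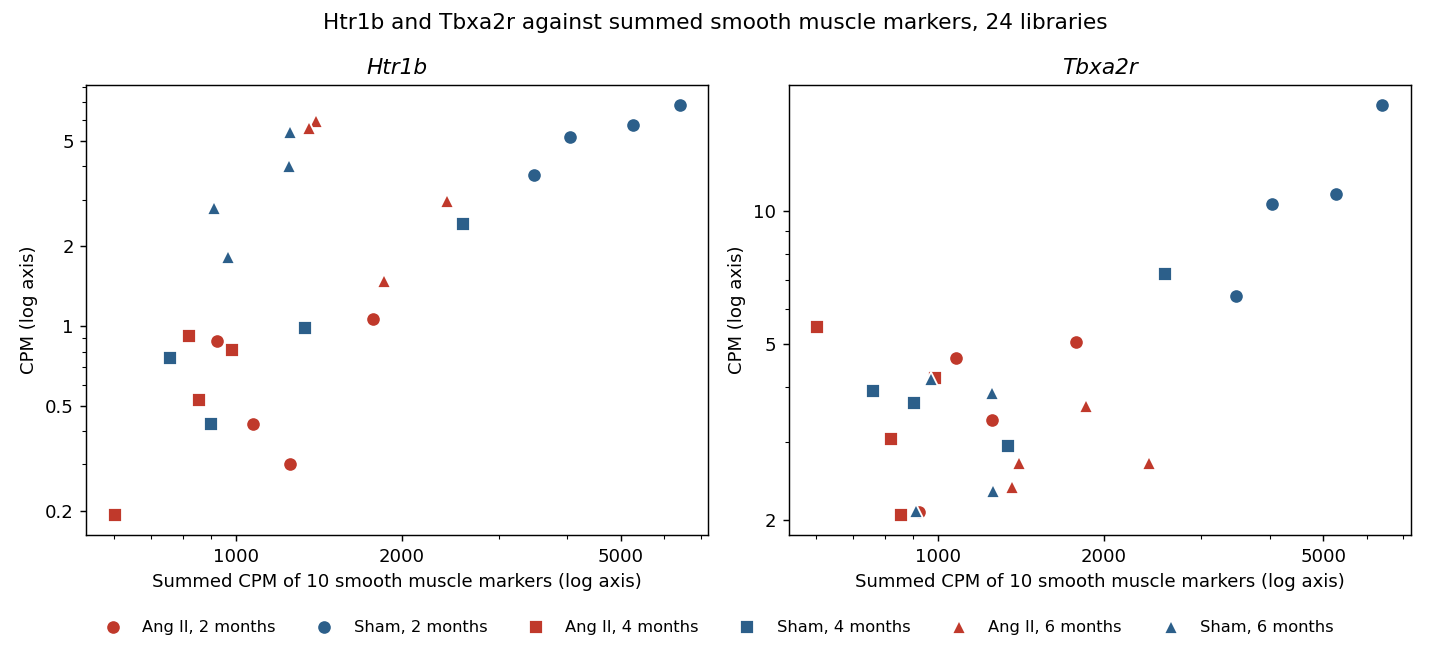
CPM of Htr1b and of Tbxa2r against the summed CPM of 10 smooth muscle markers, both on log axes, in each of 24 libraries (Ang II red, sham blue; circles 2, squares 4, triangles 6 months). The 4 sham libraries at 2 months had the 4 highest marker sums, from 3476 CPM up, and the 8 libraries at 6 months held 1.47 to 5.92 CPM of Htr1b at sums of 912 to 2417 CPM.

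Of the other marker lists, erythroid sums did not overlap at 2 months, at 51 to 155 CPM with Ang II and 186 to 461 CPM in sham. B cell sums had medians of 89.9 CPM with Ang II and 12.5 CPM in sham, and skeletal muscle sums 1537 CPM with Ang II and 386 CPM in sham, both with overlapping ranges. The part of these in the differences was not tested. Summed endothelial markers were 758 to 926 CPM with Ang II and 868 to 1138 CPM in sham, and summed platelet markers 25.3 to 34.8 CPM with Ang II and 19.4 to 35.2 CPM in sham. Summed macrophage markers were 532 to 892 CPM with Ang II and 320 to 576 CPM in sham. Per 1000 CPM of endothelial markers, Edn1 was 3.93 to 6.45 CPM with Ang II and 5.25 to 14.9 CPM in sham. At 6 months the smooth muscle sum was 1359 to 2417 CPM with Ang II and 912 to 1255 CPM in sham. Htr1b was 1.47 to 5.92 CPM with Ang II and 1.82 to 5.41 CPM in sham. Ang II replicates 3 and 4 had the highest sums, 2417 and 1857 CPM. They also held 8080 and 6729 CPM of skeletal muscle markers, against 553 and 976 CPM in replicates 1 and 2. Sham libraries held 39.4 to 594 CPM of these, and their part was not tested.

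Related genes were read from 6 lists, none of which includes any of the 10 members. At 2 months 0 of 8 tested serotonin genes (receptors, transporter and enzymes), 0 of 4 endothelin genes and 0 of 2 vasopressin and oxytocin genes passed. In the prostanoid list 1 of 17 fell and 1 rose, where 1.81% of all genes tested passed in either direction. Ptgis, prostacyclin synthase, fell to 30.2 ± 10.8 CPM with Ang II, against 140 ± 41.9 CPM in sham (log2 fold change -2.19, SE 0.286, edgeR adjusted p = 0.00968). Hpgds, a prostaglandin D synthase found in macrophages and mast cells, rose to 6.47 ± 1.52 CPM with Ang II, against 2.33 ± 0.481 CPM in sham (log2 fold change 1.49, SE 0.251, edgeR adjusted p = 0.0240). It had the same direction at 4 months, at 6.07 ± 0.330 CPM with Ang II and 1.83 ± 0.461 CPM in sham (log2 fold change 1.74, SE 0.198, edgeR adjusted p = 0.0167), where it was the only gene of the 6 lists that passed. Of all genes tested at 4 months, 0.707% passed. The 4-month call was lost under 10 of 18 alternatives, with edgeR adjusted p of up to 0.226 (with the replicate block). Summed macrophage markers at 4 months were 595 to 1044 CPM with Ang II and 322 to 543 CPM in sham, and their part in this difference was not tested.

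At 2 months 1.44% of all genes tested fell. Of 20 tested receptors for other constrictors and dilators, 1 fell at that time. This was Ramp1, the partner that turns the calcitonin receptor-like receptor into a receptor for the dilator CGRP, at 12.2 ± 1.37 CPM with Ang II and 28.8 ± 4.84 CPM in sham (edgeR log2 fold change -1.22, SE 0.144, adjusted p = 0.00820). The neuropeptide Y receptor gene Npy1r, a sympathetic constrictor receptor, came near at -1.31 (SE 0.267, edgeR adjusted p = 0.0501), a gene named after its value was seen.

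Of 38 tested effectors downstream of these receptors, 4 fell and 0 rose at 2 months, where 1.44% of all genes tested fell. The smooth muscle marker sum was lower in the same Ang II libraries, and its part in these differences was not tested. Mylk, myosin light chain kinase, was 105 ± 24.5 CPM with Ang II and 253 ± 50.9 CPM in sham (log2 fold change -1.24, SE 0.205, edgeR adjusted p = 0.0222), and it is also one of the 10 smooth muscle markers. Ppp1r12b, a myosin phosphatase subunit, was 63.9 ± 12.04 CPM with Ang II and 151 ± 17.2 CPM in sham (log2 fold change -1.21, SE 0.153, edgeR adjusted p = 0.00897). Rgs5, which shortens Gq and Gi signals in pericytes and smooth muscle, was 304 ± 50.01 CPM with Ang II and 598 ± 146 CPM in sham (log2 fold change -0.95, SE 0.188, edgeR adjusted p = 0.0442). Plcb4, a phospholipase C, was 52.3 ± 6.58 CPM with Ang II and 81.4 ± 3.59 CPM in sham (edgeR log2 fold change -0.62, SE 0.109, adjusted p = 0.0280). Of the G protein subunits in this list, Gnaq, Gna11, Gna12, Gna13 and Gnai2 had estimates between -0.11 and 0.01, with edgeR adjusted p from 0.831 upwards. The others, Gnai1, Gnai3 and Gnas, did not pass either, and their estimates are not given here.

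List medians at 2 months, which leave out the members, were 0.07 for serotonin, -0.12 for endothelin, -0.04 for vasopressin and oxytocin and 0.05 for prostanoid. They were -0.32 for other receptors and -0.06 for effectors, beside 0.01 for all genes. At 6 months no gene of the 6 lists passed, against 0% of all genes tested. In the interaction at 6 against 2 months 0.985% of 20100 genes passed, and the list genes that passed follow. The Ang II difference at 6 months exceeded that at 2 months for Ptgis by 2.20, Ramp1 by 2.23, Mylk by 1.75 and Ppp1r12b by 1.71, and fell below it for Hpgds by -1.73 (SE 0.370, 0.442, 0.265, 0.217 and 0.362; edgeR adjusted p = 0.00922, 0.0234, 0.00508, 0.00197 and 0.0330).

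**Figure D5:**
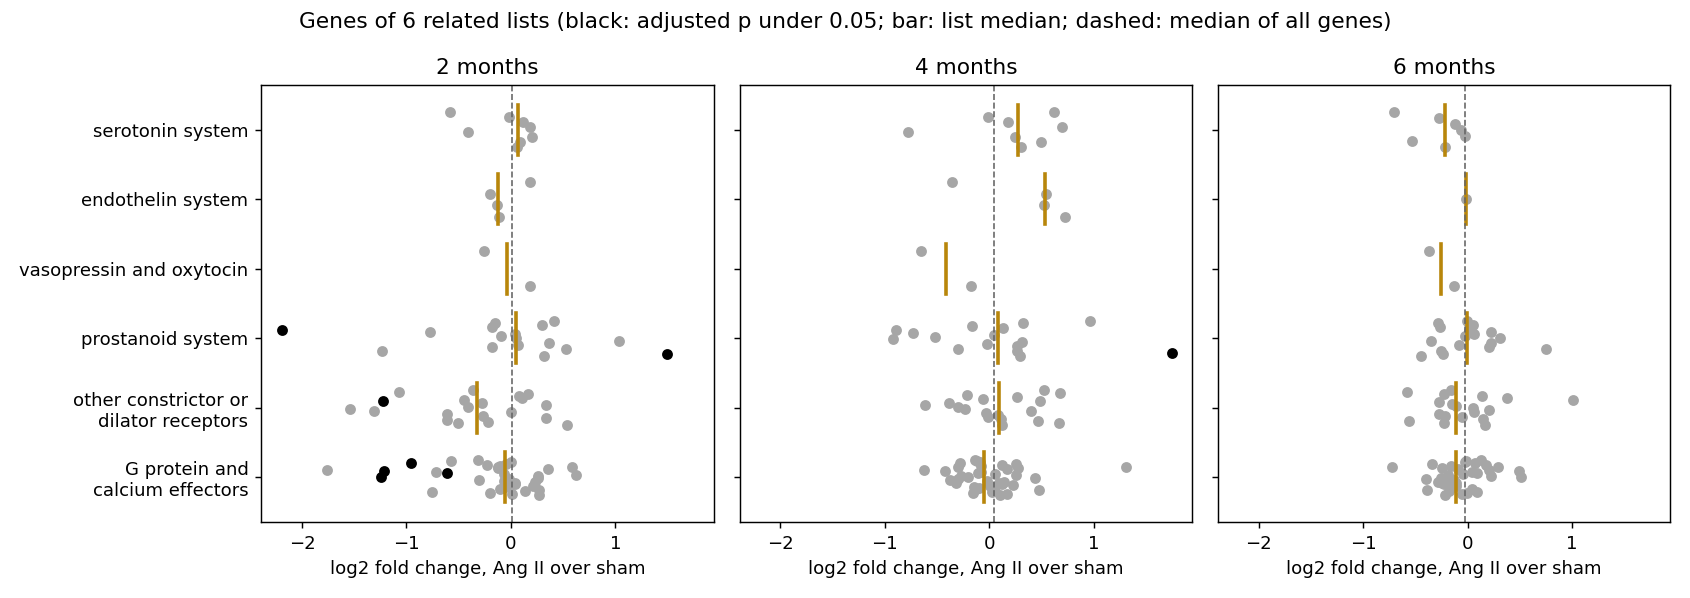
Log2 fold change of Ang II over sham of each tested gene in 6 related lists at 2, 4 and 6 months, with the list median as a gold bar and the median of all genes as a dashed line. Black points have an edgeR adjusted p under 0.05: Hpgds higher and 6 genes lower at 2 months, Hpgds alone at 4 months and none at 6 months.

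Among the members themselves, Pearson r of log2 levels over the same 16 libraries was highest between Edn1 and Avpr1a (0.816), Edn1 and Ece1 (0.796) and Htr1b and Edn1 (0.786). Htr1b and Tbxa2r had r = 0.754, and Htr2a and Tbxa2r 0.755. Ednra was the member least like Htr1b, with r = -0.0399. These are descriptions of libraries that share the group differences given above.

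Genes whose pattern was most like each member's were sought by Pearson r of log2 CPM over the 16 libraries at 2 and 4 months, among 13883 genes. These r describe libraries that fall into 4 groups and share the smooth muscle and endothelial marker sums given above. The genes most like Htr1b were Lmod1 (r = 0.966), Cnn1 (0.963) and Actn1 (0.954), of which Lmod1 and Cnn1 belong to the smooth muscle list. Tbxa2r was most like Smad7 (0.954), Zfp362 (0.911) and Itgb3 (0.909). Ednrb was most like Cd93 (0.932), an endothelial surface protein gene, Itga6 (0.873) and Nck2 (0.871). Edn1 was most like Amigo2 (0.944), Axl (0.931) and Omd (0.927). Ece1 was most like Cyfip1 (0.912), Fbln2 (0.906) and Cpd (0.903), and Avpr1a like Tspan11 (0.937), Pcolce2 (0.923) and Scara3 (0.916). Ptgir was most like Ttll12 (0.875), Zfp64 (0.868) and Gbf1 (0.851), and Ednra like Cited4 (0.768), Hopx (0.757) and Stard3 (0.755). Htr2a and Htr2b, under 1 CPM on average, were left out. On log2(CPM + 1), without the 4 sham libraries at 2 months, r over the other 12 was 0.868 for Htr1b and Lmod1, against 0.977 over all 16, a comparison added after the data were seen, and 0.859 for Tbxa2r and Smad7, against 0.963. For Ednrb and Cd93 it was 0.935, against 0.930.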

How the data were processed

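RNA of 24 aortic homogenates was, per the labels, extracted with a spin-column kit and made into messenger RNA libraries. Steps with cutadapt, FastQC, featureCounts, STAR and DESeq2 on mm10 are listed, per the submitters' processing notes, without versions or strand setting. The authors deposited whole-number read counts per gene, and tables with a log2 fold change, p-value and adjusted p-value for each time. Member coordinates are those of the authors' tables, and promoter letters are from RefSeq (GRCm38.p6).

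The deposited counts were tested with edgeR 4.0.16 in R 4.3.3: filterByExpr (minimum count 10, minimum total 15), TMM, and the quasi-likelihood F test with Benjamini-Hochberg adjustment at 0.05 over all genes tested, within each time, over 16 libraries for interactions and over 24 for the average. SE is the fold change over the square root of F. CPM shown are TMM-scaled over 24 libraries. DESeq2 1.42.0, limma 3.58.1 voom, other filters and scalings, covariates, a replicate block and leaving out each library were alternatives. The test was checked on simulated counts. Named genes are all members, called genes of 6 lists, and the 3 genes most like each member. The members and lists were chosen with earlier results of these data known.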

Additional observations from a re-analysis of the deposited data

Results flagged for a closer look

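The levels of Edn1 and Htr2b stood far from the rest of their group of 4 libraries, in 60 member-by-group sets, of which chance flags about 1 in 20. Edn1 reached 8.11 CPM in sham replicate 4 at 4 months, far above the other 3 sham libraries, and the same library had the highest smooth muscle marker sum of its group. Htr2b was at 0.162 CPM in Ang II replicate 4 at 4 months, which rests on 4 counts.

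The Ang II difference of Htr1b differed between times by 3.14 on the log2 scale at 6 against 2 months (edgeR adjusted p = 0.0347). Libraries at 6 months had a higher share of mitochondrial counts than those at 2 months, and that share and time cannot be told apart, although the Ang II difference is taken within each time.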

How the results depend on the processing

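The fall of Htr1b at 2 months kept its direction under all alternatives run, and its call under all but 1 (without sham replicate 1). The number of members called at 2 months was 1, against 2 with DESeq2 (Htr1b and Tbxa2r), 3 with limma voom (also Htr2a) and 2 in a fit of all 24 libraries, and 0 to 1 on leaving out a library. At 4 months it was 0, against 1 with DESeq2 and 1 with voom (Ptgir). For the effect at 4 against 2 months it was 0, against 1 with voom. For 6 against 2 months it was 1, and 0 to 1 on leaving out a library. For sham at 4 against 2 months it was 0, against 3 with DESeq2, 2 with voom, 1 in the 24-library fit and 0 to 3 on leaving out a library. Over all genes the same settings called 852, 801, 453 and 0 to 641 in that order, against 1 with the edgeR fit used above. The cause was not tested.

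Replicate numbers did not pair the libraries, since same-numbered deviations correlated between -0.273 and 0.523, and not every library was most like the one with its own number. With the numbers as a replicate block the members called were 1 at 2 months and 0 for the effect at 6 against 2 months.

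All genes called at 2 months were 297, between 78 and 255 without 1 library and between 193 and 727 under other settings. At 4 months they were 114, from 0 to 674 and from 0 to 993 in the same order. For the interaction at 6 against 2 months they were 198, from 122 to 222 and from 87 to 477. The effect at 4 against 2 months had 0, from 0 to 128 and from 0 to 467. Sham at 4 against 2 months had 1, from 0 to 641 and from 0 to 852. At 2 months the list of other receptors had 1 call, against 6 with DESeq2 and 3 with voom, and the effectors had 4, against 8 with DESeq2, voom or all 24 libraries and 1 to 5 without 1 library. At 4 months the prostanoid list had 1, against 3 with DESeq2 and voom and 0 with the block or either covariate, and the endothelin list 0, against 1 with DESeq2 size factors, DESeq2 or voom.

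Some log2 fold changes, none of them called, changed sign. With the adipocyte covariate these were Ednra at 2 months (0.0338), Ece1 (-0.201) and Avpr1a (-0.15) at 4 months, Htr1b (-0.0247) and Tbxa2r (0.0245) at 6 months, Tbxa2r in Ang II aortas over time (0.0521) and Edn1 in sham over time (0.0335, against -1.04). With voom they were Ednra (-0.0249) and Edn1 (0.381) at 4 months, Htr2a (0.105) and Ednrb (0.113) at 6 months, and Htr1b (0.609) and Tbxa2r (0.0337) in Ang II aortas over time. Edn1 at 4 months became 0.0157 with the replicate block and 0.0355 with the airway covariate, and Htr2a at 6 months 0.00461 with DESeq2.

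On leaving out single libraries, ranges that crossed 0 at 2 months were -0.00143 to 0.409 for Htr2b, -0.191 to 0.0917 for Ednra and -0.107 to 0.0153 for Ece1. At 4 months they were -0.418 to 0.524 for Edn1, -0.0292 to 0.166 for Ece1 and -0.481 to 0.0857 for Tbxa2r. At 6 months they were -0.0667 to 0.459 for Htr1b, -0.235 to 0.234 for Htr2a, -0.0115 to 0.222 for Ednra, -0.206 to 0.0986 for Ednrb, -0.28 to 0.0329 for Edn1, -0.306 to 0.0563 for Ece1 and -0.273 to 0.0259 for Tbxa2r. In Ang II aortas over time they were -0.358 to 0.2 for Htr1b and -0.279 to 0.161 for Tbxa2r.

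Scaling to total counts, or to counts outside mitochondrial and ribosomal genes, moved 66 of 120 group levels by over 1 SD, so levels were compared only on the TMM scale. With Spearman in place of Pearson, 6 of the 24 most alike genes were shared. At 2 and 4 months counts of 35 or fewer limit Htr2a and Htr2b.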
